A study of Schizosaccharomyces pombe with 8 samples.

Results

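The control immunoprecipitation (IP) of cells expressing GFP-Mmi1 was compared with the whole cell extract (WCE) of the same strain, in sequential RNA immunoprecipitation and sequencing (seqRIP-seq) libraries of the fission yeast Schizosaccharomyces pombe. The labels give 2 IP and 2 WCE libraries for this strain, 4 of the 8 libraries of the series, and the IP and the WCE with the same replicate number were paired. The control strain carried kanMX::Pnmt41-GFP-Mmi1 and natMX::Pnmt1-3xFLAG-Mei2. The strain of interest, used here for comparison and in the shared fit of the test, carried kanMX::Pnmt41-TAP-Mmi1 with the same natMX::Pnmt1-3xFLAG-Mei2. Both strains therefore expressed the tagged Mmi1 from the medium-strength nmt41 promoter and Mei2 from the strong nmt1 promoter, and the Mei2 level in these cells is not that of wild-type mitotic cells. Cells grew in EMM minimal medium at 30 °C and were fixed with 0.2% formaldehyde. Extracts were first bound to IgG beads, which hold a TAP tag but not GFP, then released with TEV protease and bound to anti-FLAG beads, which hold 3xFLAG-Mei2. The control IP thus holds the RNA that went through both beads without a TAP tag on Mmi1, and which of the beads or proteins retained it cannot be told apart. The series' design text calls the 2 replicates of each group biological duplicates. Neither GFP nor the TAP tag is a listed feature, so the counts do not check the tag.

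Mmi1 is a YTH-domain protein that binds meiotic transcripts in growing cells and hands them to nuclear RNA decay, and Mei2 is an RNA-binding protein that promotes meiosis and counteracts Mmi1. A purification without the bait tag is the usual control for such an experiment, because abundant or sticky RNA stays on beads whatever protein they hold. Most RNA of a growing yeast cell is ribosomal RNA (rRNA). Small nucleolar RNAs (snoRNAs) guide its modification: those with a box ACA near the 3′ end guide pseudouridylation, and those with boxes C and D guide methylation.

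Each library gives a read count for 6973 named features. Total counts were 34495606 and 34415561 in the IP replicates and 36446618 and 36453624 in the WCE replicates, so that the libraries were of similar size. Outside rRNA, however, 1248446 and 1373823 counts were left in the IP, against 33537305 and 32215233 in the WCE. A median mRNA had 86 and 80 counts in the IP replicates and 2995 and 2912 in the WCE replicates, and a median long non-coding RNA (lncRNA) had 23 and 20 against 698 and 683. Outside rRNA, IP counts were thus low for most features. The IP replicates were also further apart than the WCE replicates. Of 5623 features with at least 10 counts in each of the 4 libraries, 683 differed over 2-fold between the IP replicates and 9 between the WCE replicates, after scaling. The 36 mitochondrially encoded features listed with SPMIT identifiers and 2 mitochondrial rRNAs had 0 counts in all 8 libraries, and Tf2 retrotransposons are not among the features.

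The snoRNAs below are shown because letters at their ends divide them into groups that differed in the control IP. They were read from the reference genome ASM294v3 at the annotated span and are written as DNA from 5′ to 3′. In the first set capitals mark ACA, searched on the RNA strand so that 2 to 4 bases follow it at the 3′ end. In the second set they mark TGATGA, searched in the first 25 bases as box C, and CTGA, searched in the last 13 bases as box D. Of all 53 annotated snoRNAs, 16 (30.2%) held the ACA and 18 (34%) held both C and D, whereas the same letters stood at the ends of 6.31% and 0% of 1426 lncRNAs with coordinates. The first set holds 5 of the 16, with spans chrI:3316466-3316609 (snR91, minus strand), chrII:884166-884332 (snR3, minus), chrIII:583416-583605 (sno12, plus), chrIII:1717920-1718087 (snR46, minus) and chrII:1468185-1468406 (snR95, minus).
snR91: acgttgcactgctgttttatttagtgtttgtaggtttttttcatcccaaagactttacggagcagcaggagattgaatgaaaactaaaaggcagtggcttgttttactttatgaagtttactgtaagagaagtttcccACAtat
snR3: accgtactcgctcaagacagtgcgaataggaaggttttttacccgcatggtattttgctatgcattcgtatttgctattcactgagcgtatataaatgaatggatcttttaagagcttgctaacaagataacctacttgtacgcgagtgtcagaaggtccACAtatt
sno12: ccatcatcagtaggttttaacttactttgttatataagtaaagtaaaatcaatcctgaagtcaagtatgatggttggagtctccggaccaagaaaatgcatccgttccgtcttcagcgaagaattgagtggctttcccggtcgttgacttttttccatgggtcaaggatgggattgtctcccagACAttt
snR46: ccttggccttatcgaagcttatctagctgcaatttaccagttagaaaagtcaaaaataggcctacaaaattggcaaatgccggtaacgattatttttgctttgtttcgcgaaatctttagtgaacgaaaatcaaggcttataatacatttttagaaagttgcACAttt
snR95: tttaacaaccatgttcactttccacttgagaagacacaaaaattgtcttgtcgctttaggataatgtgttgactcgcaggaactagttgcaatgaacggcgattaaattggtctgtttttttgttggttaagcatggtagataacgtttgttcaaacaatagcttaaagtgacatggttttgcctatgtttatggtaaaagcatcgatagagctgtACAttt

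The second set holds 4 of the 18 with boxes C and D, with spans chrI:5366223-5366297 (snoR58, minus strand), chrI:5144133-5144206 (snoR38, plus), chrI:1200646-1200729 (snR51b, plus) and chrI:1200168-1200253 (snR41, plus).
snoR58: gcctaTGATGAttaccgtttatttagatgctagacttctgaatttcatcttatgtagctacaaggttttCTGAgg
snoR38: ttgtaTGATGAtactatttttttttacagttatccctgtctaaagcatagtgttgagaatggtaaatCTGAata
snR51b: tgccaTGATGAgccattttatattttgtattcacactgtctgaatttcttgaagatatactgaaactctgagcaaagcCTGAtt
snR41: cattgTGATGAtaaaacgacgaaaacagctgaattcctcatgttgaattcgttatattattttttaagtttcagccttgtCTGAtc

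The control IP was almost entirely rRNA. Features of rRNA took 96.4% and 96.0% of the counts in the IP replicates and 7.98% and 11.6% in the WCE replicates. The exact 95% binomial interval of the first share was 96.37% to 96.39%. Such an interval holds for counting error alone, because amplified reads with no molecular identifier can be copies of a single molecule. Because rRNA was depleted from the WCE RNA and not from the IP RNA, retention on the beads and depletion of the extract cannot be told apart for rRNA. The large subunit 28S rRNA alone held 71.5% and 73.8% of the IP counts, against 7.61% and 10.8% in the WCE. Its IP count was 8.88 and 6.43 times its WCE count in replicates 1 and 2. For the small subunit 18S rRNA this ratio was 66.9 and 27.2, with 24.8% and 22.1% of the IP counts and 0.351% and 0.769% of the WCE counts. The 5.8S rRNA had ratios of 5.39 and 2.74, and the 36 listed 5S features together had 24.9 and 20.7. The kinds of rRNA thus differed in their ratio, and the IP was above the WCE in both replicates for each kind. The rRNA level of the WCE was itself 1.80 times higher in replicate 2 than in replicate 1 for a median rRNA feature. Reads that match several rRNA copies equally well may have been placed on any of them, so single copies such as SPRRNA.47, SPRRNA.48 and SPRRNA.49, the features with the most IP counts, are not told apart.

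**Figure D1:**
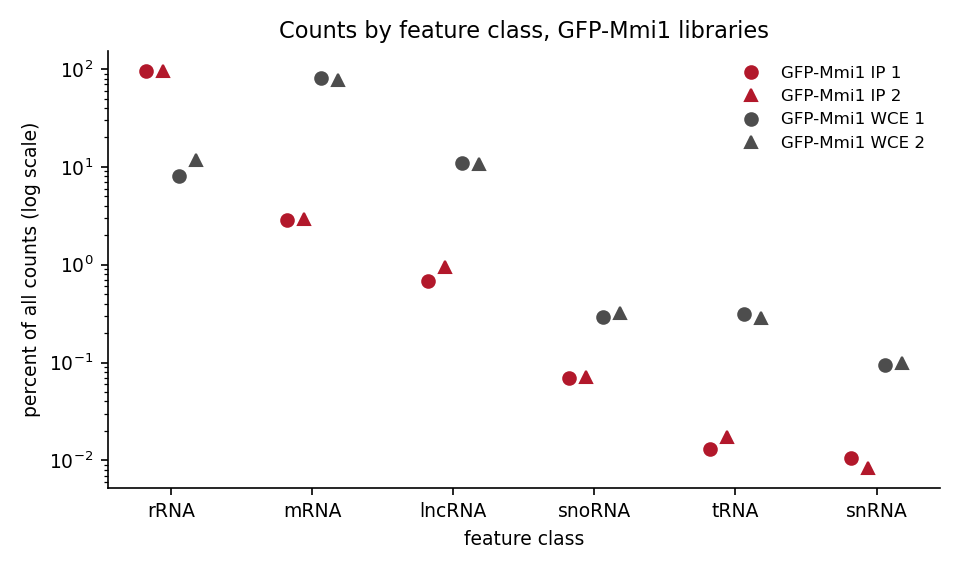
Share of all counts (percent, log scale) taken by each feature class in the 2 GFP-Mmi1 IP libraries (red) and the 2 WCE libraries (grey), circles for replicate 1 and triangles for replicate 2. rRNA took 96.4% and 96.0% of the IP counts, and each of the other 5 classes took a smaller share of the IP than of the WCE in both replicates.

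Every class outside rRNA took a smaller share of the IP than of the WCE. mRNAs took 80.3% and 77.0% of the WCE counts and 2.84% and 2.95% of the IP counts, lncRNAs 11.00% and 10.64% against 0.684% and 0.946%, and transfer RNAs (tRNAs) 0.311% and 0.285% against 0.0132% and 0.0174%. For snoRNAs the shares were 0.294% and 0.317% of the WCE and 0.0688% and 0.0714% of the IP, and for small nuclear RNAs (snRNAs) 0.0953% and 0.0998% against 0.0105% and 0.00836%. The IP and WCE shares overlapped in none of the classes, for which the same limit holds. The gap was unequal, as the shares of the counts outside rRNA show. There, snoRNAs took 1.90% and 1.79% of the IP against 0.320% and 0.359% of the WCE, snRNAs 0.291% and 0.209% against 0.104% and 0.113%, and lncRNAs 18.9% and 23.7% against 11.96% and 12.05%. The mRNA share of these counts was lower in the IP, with 78.5% and 73.9% against 87.3% and 87.2%.

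To ask which features differed, the quasi-likelihood test of edgeR was run over 6827 features with Benjamini-Hochberg adjustment. The fit held all 8 libraries, so the TAP-Mmi1 libraries also entered the scaling, the filter on low counts and the estimate of the spread. A feature is called higher or lower in the IP at an adjusted p under 0.05. The answer depended on what the counts were scaled to. With library totals as the only scaling, the median feature was at -5.08 on the log2 scale, 48 features were higher in the IP (0.703% of those tested) and 6678 were lower (97.8%). Of the 48 higher features, 45 were rRNA and the others were SPAC869.01, SPNCRNA.337 and apc10. With TMM scaling, which corrects for composition by setting the typical feature near 0, the median was -0.03, 560 features were higher (8.2%) and 269 were lower (3.94%). With rRNA left out of the totals and of the fit, the median was -0.52, 243 of 6780 features were higher (3.58%) and 1838 were lower (27.1%). The first scale asks which RNAs made up more of the IP than of the depleted extract, and the second asks which had a higher IP/WCE than the typical RNA. For 474 features both were called with opposite signs, higher after TMM and lower on library totals, and 47 features were higher on both scales. Outside rRNA, 20 of 6780 features had a positive log2 IP/WCE on library totals, and 3 of them passed the test. Unless stated otherwise, log2 IP/WCE below is the difference after TMM scaling with its standard error, and the value on library totals is about 5 lower.

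**Figure D2:**
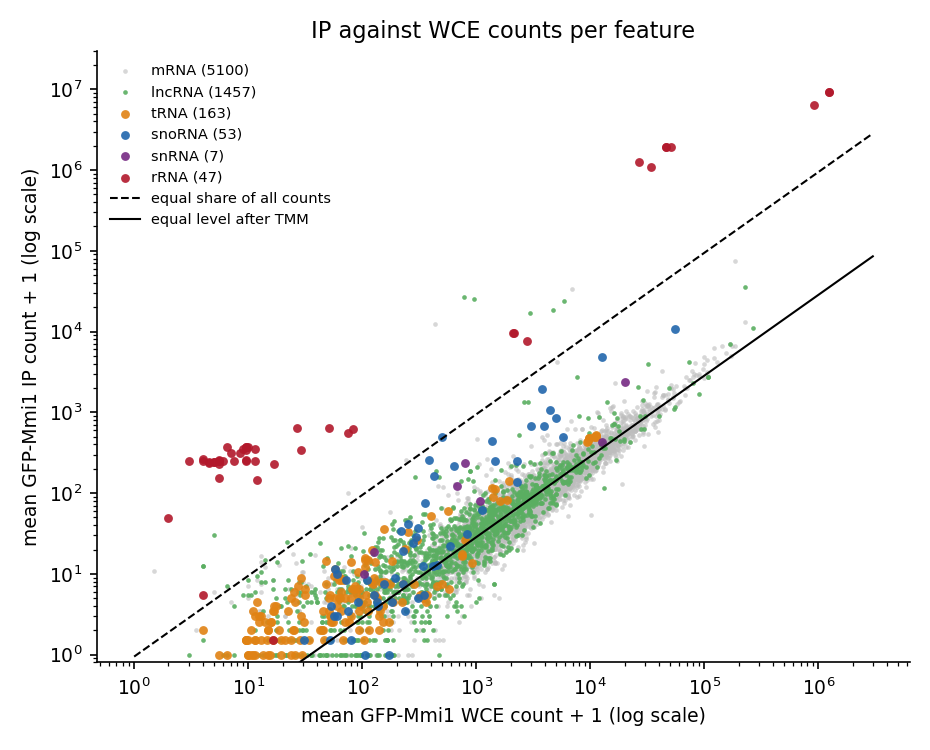
Mean count of the 6827 tested features in the GFP-Mmi1 IP (y axis) and WCE (x axis), 1 added, both axes on a log scale, coloured by class. The dashed line marks an equal share of all counts (IP/WCE count ratio 0.945) and the solid line an equal level after TMM (0.0285); most mRNAs and lncRNAs lie around the solid line, and rRNA features and a few others lie above the dashed line.

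By class, rRNA had the highest IP/WCE, followed by snRNAs and snoRNAs, whose order changed with the depth of the features. Since only the WCE RNA went through rRNA depletion, purification and this step cannot be told apart for the other classes either. The median log2 IP/WCE was 10.43 for 47 rRNA features (45 higher, 0 lower), 2.04 for 7 snRNA features (5 higher), 1.05 for 53 snoRNAs (23 higher, 43.4%) and 0.75 for 163 tested tRNAs (15 higher, 9.2%), with 0 lower in each. lncRNAs had a median of 0.07, with 144 of 1457 higher and 43 lower, and mRNAs had -0.06, with 328 of 5100 higher and 226 lower. Over all features the median was -0.03, with 8.2% higher and 3.94% lower. Of the 47 rRNA features, 36 are 5S copies with 439 and 486 WCE counts in all. Reads may be shared among rRNA copies, so the 45 calls may not be separate measurements. Only 17 of the 47 had at least 10 counts in each control library, with a median of 8.76 and 17 higher. The share of tRNAs and mRNAs called higher (9.2% and 6.43%) was near that of all features, and that of snoRNAs and snRNAs (43.4% and 71.4%) was above it. Most tRNAs had few counts, however. Of the 27 tRNAs with at least 10 counts in each control library, 14 were higher (51.9%), some of them copies of the same sequence. At that depth 8.95% of all features and 6.79% of mRNAs were higher. There snoRNAs had the higher median, 2.56 with 23 of 27 higher, against 2.17 for snRNAs with 5 of 6 higher. On library totals the class medians kept the order found over all tested features. They were 5.44 for rRNA, -3.01 for snRNAs, -4.01 for snoRNAs, -4.25 for tRNAs, -4.98 for lncRNAs and -5.11 for mRNAs. No snoRNA or snRNA was higher there, and 51 of 53 and 7 of 7 were lower. Of the features with coordinates, 78.1% of the lncRNAs, 57.2% of the mRNAs and 49.1% of the snoRNAs overlap another listed feature. Pairs on opposite strands that cover at least 95% of each other (25 pairs) differed by a median of 1.02 times in their WCE counts, so reads of a feature and of its antisense partner may be counted for both. Among features that overlap no other, the medians were 1.91 for 27 snoRNAs and 0.48 for 255 lncRNAs.

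Within the snoRNAs, those with the ACA box were higher in the IP and those with boxes C and D mostly were not called. Of the 16 with ACA, 13 were higher and 0 lower, with a median log2 IP/WCE of 2.70. Of the 18 with boxes C and D, 4 were higher (sno52, snr79, snoR69b and snoU14), with a median of 0.12. The summed IP count of the ACA group was 0.247 and 0.233 of its WCE count in replicates 1 and 2, and that of the C and D group was 0.0610 and 0.0809. The ACA ratio was thus above that of the C and D group in both replicates. Among snoRNAs that overlap no other listed feature, the ratios were 0.249 and 0.234 for 12 with ACA (10 higher, median 2.90) and 0.0832 and 0.202 for 8 with C and D (2 higher, median 0.62), so in replicate 2 the gap was small. There, snoU14 held 347 of the 400 IP counts of the C and D group. The groups also differed in length, position and depth, whose part was not tested. The ACA snoRNAs are 96 to 488 nt long with a median of 167.5 nt, and the others 73 to 112 nt with a median of 83.5 nt. Within another feature on the same strand lay 1 of the 16 and 8 of the 18. Only 6 of the 18 reached 10 counts in each of the 4 libraries, with a median of 0.99 and 4 higher, against 13 of the 16, with a median of 2.87 and 13 higher. Median GC content was 36.4% and 36.3%. Of the 13 snoRNAs with only one of the boxes C and D, 1 was higher (snoR47), and of the 6 with neither set of letters, 5 were higher (sno16, sno20, snR5, snR10 and snR101). Of the 3 ACA snoRNAs that were not called, snR93 and snoR54b had few counts. For snR97 this held in the IP only, and its mean WCE count was close to that of snR91. Its log2 IP/WCE was -1.14 ± 0.76 (adjusted p = 0.36 from edgeR). It thus lay below 0, unlike the median of its group, and did not pass the test.

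**Figure D3:**
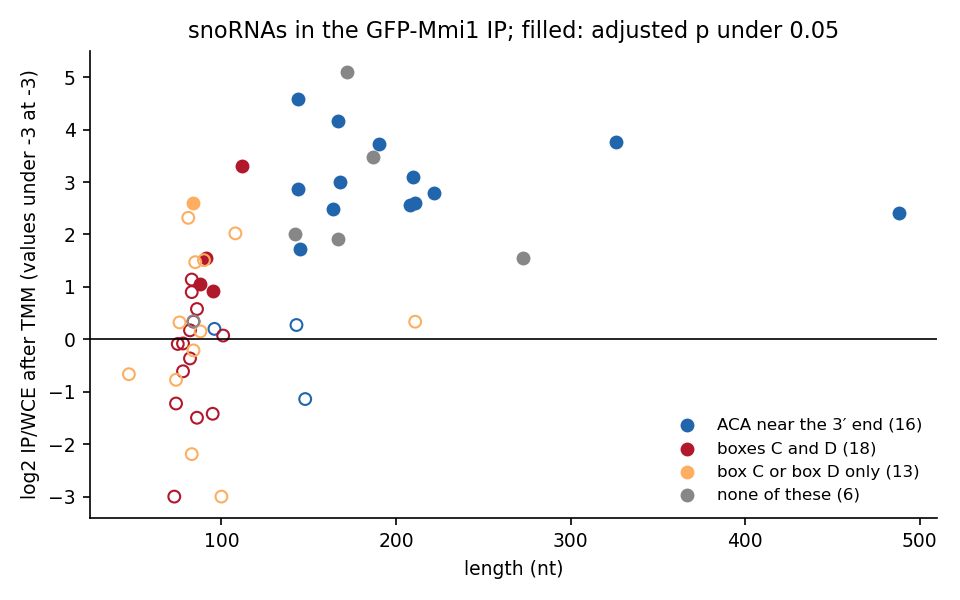
log2 IP/WCE after TMM of the 53 snoRNAs (y axis, values under -3 drawn at -3) against their annotated length in nt (x axis), coloured by the letters found at their ends. Filled points passed an adjusted p of 0.05; 13 of the 16 snoRNAs with ACA are filled, against 4 of the 18 with boxes C and D, and the ACA group is also the longer.

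snR91, the first sequence above, had 272 and 246 counts in the IP and 352 and 413 in the WCE. Although the IP held far fewer counts outside rRNA, its counts were of the size of those of the WCE, and its log2 IP/WCE was 4.57 ± 0.21 (adjusted p = 2.4e-08 from edgeR), or -0.48 on library totals. snR3 had 1757 and 2136 counts in the IP against 3795 and 3799 (4.16 ± 0.19, adjusted p = 2.4e-08 from edgeR). sno12 was at 3.73, snR30, which takes part in the processing of 18S rRNA, at 3.76, and snR46 at 3.00. snR95 was the most counted snoRNA of the IP, with 10934 and 10732 counts against 51867 and 57747 in the WCE and a log2 value of 2.80. In none of these did the IP replicates differ over 2-fold. By contrast, the C and D snoRNAs printed above had values of -0.09 (snoR58), -1.22 (snoR38), 0.34 (snR51b) and -1.50 (snR41), and none passed the test. The printed snoRNAs do not stand for their whole groups. Those with ACA were all called, whereas the 4 called C and D snoRNAs, between 0.92 (sno52) and 3.31 (snoU14), are not printed. snR41 averaged 0.5 counts in the IP and 51 in the WCE, so its value carries little precision. snoR58 and snoR38 lie within a feature on the same strand, with which their reads may be shared. sno20 had the highest value of all snoRNAs, 5.10 ± 0.33 from 565 and 413 counts against 477 and 515. It overlaps the mRNA SPBC1921.04c, which had nearly the same counts (550 and 416 against 476 and 512), so that the RNA behind these reads cannot be told apart.

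Among the 5 spliceosomal snRNAs, which form the spliceosome with their proteins, U1 stood out. As a set these 5 had a median log2 IP/WCE of 1.35 with 3 higher, below the 2.04 of the 7 features listed as snRNAs. snu1 (U1) had 263 and 207 counts in the IP and 773 and 820 in the WCE, a log2 IP/WCE of 3.37 ± 0.21 (adjusted p = 4.4e-07 from edgeR) and -1.69 on library totals. snu2 (U2) had 463 and 396 against 12906 and 12490, which gave 0.24 ± 0.13 and did not pass the test. U1 therefore had a higher count ratio than U2 in both replicates. snu6 (U6) was at 1.35 and snu5 (U5) at 2.29, both higher, although snu5 was called in 1 of the 4 fits that left out a replicate, whereas snu4 (U4), with 1 and 17 counts in the IP, was at 1.23 and not called. snu3, the U3 RNA that acts in rRNA processing, was higher at 2.64 ± 0.24, from 138 and 105 counts against 728 and 631. It is listed with the snRNAs and so was not counted in the snoRNA groups above. Of other structured RNAs, rrk1, the RNA of RNase P, was at 1.63 ± 0.19 and mrp1, the RNA of RNase MRP, at 1.06 ± 0.14, both higher. srp7, the RNA of the signal recognition particle, had 11278 and 11060 counts against 300379 and 229872 (0.58 ± 0.20, adjusted p = 0.088 from edgeR), and ter1, the telomerase RNA, was at 0.40 ± 0.18 (adjusted p = 0.17 from edgeR).

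tRNAs were few in the IP, with 4545 and 5980 counts over 171 genes against 113469 and 104057 in the WCE. The tRNAs for aspartate made up most of them, with 3273 and 4421 IP counts over 8 genes and 87251 and 78488 WCE counts. Of these 8 genes, 7 were higher in the IP, with log2 IP/WCE between 0.63 and 0.80. The 8 genes share 2 sequences, so they are not separate measurements. The 3 highest tRNA genes past the test were SPBTRNAASN.04 (18 and 9 counts against 47 and 48, log2 3.25), sup9 (27 and 43 against 156 and 153, 2.96) and sup3 (24 and 14 against 104 and 136, 2.45), of which sup9 and sup3 are serine tRNAs by their identifiers. With counts this low only sup9 stayed past the threshold when any replicate of either strain was left out.

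The RNAs that the study follows as partners of Mmi1 and Mei2 were above the typical feature in the control IP. UpsnoU14, the lncRNA named mamRNA in the study, had 1017 and 4526 counts in the IP and 7473 and 7854 in the WCE. Its IP level was below its WCE level by count in both replicates and varied over 4-fold between the IP replicates, with a log2 IP/WCE of 3.30 ± 0.48 (adjusted p = 0.0039 from edgeR) and -1.75 on library totals. snoU14, the box C and D snoRNA downstream of it, had 84 and 347 against 582 and 699 (3.31 ± 0.49, adjusted p = 0.020 from edgeR). omt3, a lncRNA about 1 kb from mei2, had 388 and 1436 against 7657 and 8368 (1.72 ± 0.36, adjusted p = 0.014 from edgeR). The long form of sme2, the gene of the meiotic lncRNA meiRNA, had 2114 and 2049 counts against 22979 and 29386 (1.49 ± 0.19, adjusted p = 0.0003 from edgeR), and its short form SPNCRNA.103 was at 1.77. The sme2 replicates were close, whereas in UpsnoU14, snoU14 and omt3 the second IP replicate was the higher by 3.7 to 4.5 times in counts. All 5 were below 0 on library totals, where UpsnoU14 did not pass the test (adjusted p = 0.13 from edgeR). The calls of UpsnoU14, snoU14 and omt3 also ended without either TAP-Mmi1 replicate (adjusted p between 0.22 and 0.44 from edgeR), which enter through the shared estimate of the spread. For omt3 the call ended without GFP-Mmi1 replicate 2 as well, at a log2 value of 0.80 (adjusted p = 0.11 from edgeR).

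The meiotic mRNAs that Mmi1 binds gave a weaker pattern of the same kind. Of 11 tested, 6 were higher and 0 lower, with a median log2 IP/WCE of 0.71, against 8.2% higher, 3.94% lower and a median of -0.03 over all features. The count depended on the setting: on totals outside rRNA 1 was higher (median 0.18), on library totals 0 were higher and 11 lower, and without the replicate block 3 were higher, or 1 with the GFP-Mmi1 libraries alone. mug8 (1.35) had 243 and 722 counts against 5589 and 6071, rec8 (1.22), which encodes a meiotic cohesin subunit, had 53 and 147 against 1438 and 1386, and ssm4 (0.98) had 86 and 201 against 2246 and 2561. In these 3 the second IP replicate was again over 2-fold higher. mug9 (1.02), spo6 (1.00) and mei4 (0.63), which encodes a meiotic transcription factor, were the others called higher, and mcp7, rec10, spo5, crs1 and mug10 lay between -0.43 and 0.71 and were not called. After TMM scaling, 9 of the 10 meiotic mRNAs with at least 10 counts in each library were higher in IP replicate 2 than in replicate 1, by a median of 2.01 times, and 2740 of 5623 features were, with a median of 0.988 times. The 13 ACA snoRNAs of that depth had a median of 1.05 times and ribosomal protein mRNAs 0.981 times. Without GFP-Mmi1 replicate 2, 1 meiotic mRNA was higher (spo6) and 1 was lower (mcp7), and the median was 0.34. Without replicate 1, 9 were higher. The number of ACA snoRNAs called was 13 in both cases.

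**Figure D4:**
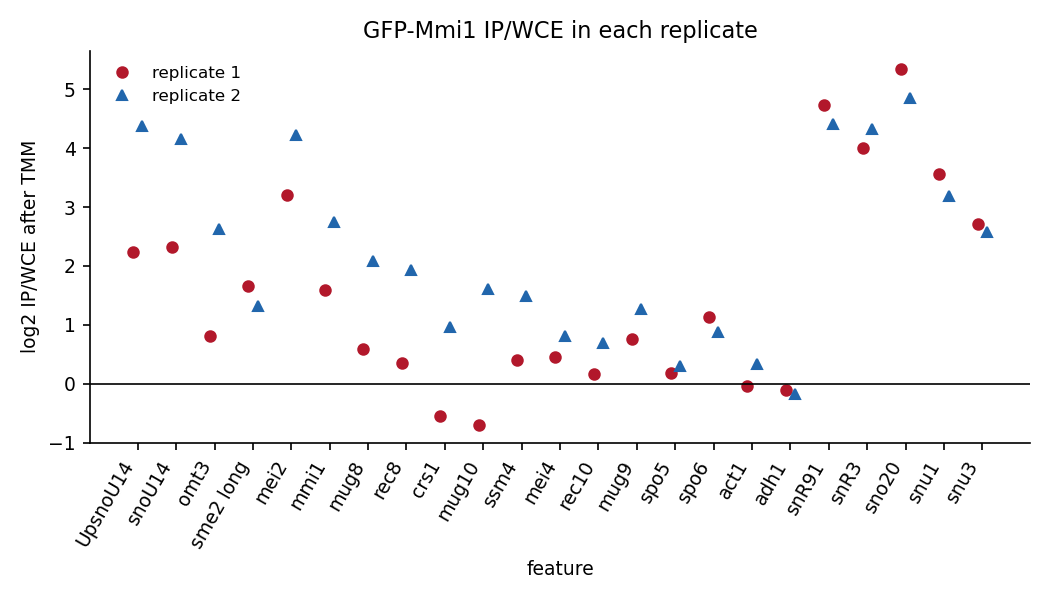
log2 IP/WCE after TMM of each GFP-Mmi1 replicate pair (circles replicate 1, triangles replicate 2) for the RNAs the study follows, the bait mRNAs, meiotic mRNAs, act1, adh1 and 5 small RNAs. UpsnoU14, snoU14, omt3, mei2 and most meiotic mRNAs are higher in replicate 2, whereas act1, adh1, snR91, snR3, snu1 and snu3 lie close together in both.

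The bait mRNA mei2 was the feature outside rRNA with the most IP counts. It had 49920 and 97600 in the IP and 187141 and 186689 in the WCE, a log2 IP/WCE of 3.71 ± 0.38 (adjusted p = 5.4e-05 from edgeR) and -1.34 on library totals. mmi1, the other gene under an nmt1-type promoter, had 1455 and 3107 counts against 16582 and 16534 (2.17 ± 0.60, adjusted p = 0.095 from edgeR). Both were higher in the second IP replicate, by 1.96 and 2.14 times. The mRNAs of act1, which encodes actin, and adh1, an alcohol dehydrogenase, lay at the level of the typical feature: act1 had 1975 and 2208 counts against 69604 and 62342 (0.16 ± 0.15), and adh1 had 2993 and 2561 against 110655 and 103625 (-0.14 ± 0.17), and neither passed the test.

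Several features at leu1 and nmt1 had more counts in the control IP than in its WCE. leu1, a leucine synthesis gene used as a selection marker in fission yeast (chromosome II, 1974390 to 1975674), had 23324 and 44854 counts in the IP and 7243 and 6517 in the WCE. Its log2 IP/WCE was 7.37 ± 0.92 (adjusted p = 0.013 from edgeR) and 2.32 on library totals. The neighbour on one side, apc10 (1973362 to 1974265), had 8651 and 16160 against 412 and 457, whereas top2, the neighbour on the other side, had 572 and 618 against 21975 and 22180 (-0.08 ± 0.13). The excess at leu1 thus extended to apc10 and not to top2. nmt1, the gene whose promoter drives the Mei2 construct, is also named thi3, and the thi3 ncRNAs, for which no coordinates were matched, are set beside it by name alone. Of these lncRNAs, thi3_ncRNA2 had 17784 and 35952 counts in the IP against 791 and 768, thi3_ncRNA3 had 16363 and 33801 against 949 and 945, and thi3_ncRNA1 had 11680 and 22334 against 2842 and 3038. SPNCRNA.1235 (chromosome III, 1839787 to 1844115) had 15950 and 31813 against 6012 and 5742. For all of these the IP counts exceeded the WCE counts in both replicates. nmt1 itself (1838415 to 1839664), a thiamine synthesis gene, had 11483 and 15093 against 239869 and 212318, and gut2, which lies inside SPNCRNA.1235, had 135 and 165 against 5257 and 5042 (0.03 ± 0.20). Rules that use the values of these data, the highest log2 IP/WCE or the most IP counts, named leu1, thi3_ncRNA2 and thi3_ncRNA3. Apart from these and mei2, mmi1 and nmt1, the features here and ura4 below were described after their values had been seen.

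Most features of this group moved together between the control replicates. In the control, counts in IP replicate 2 were 1.87 to 2.07 times those in replicate 1 for apc10, leu1, SPNCRNA.1235, SPNCRNA.504 and the 3 thi3 ncRNAs. For nmt1 the gap was smaller, by the counts above. In the TAP-Mmi1 strain, IP replicate 1 exceeded replicate 2 for leu1 (6.11 times) and thi3_ncRNA2 (14.4 times), and the other features are not given here. This spread enters the test, and log2 values of 7.02 to 10.15 did not pass it for SPNCRNA.504 (adjusted p = 0.18), SPNCRNA.1235 (0.088), thi3_ncRNA1 (0.13), thi3_ncRNA2 (0.065), thi3_ncRNA3 (0.068) and apc10 (0.053), all from edgeR. When either TAP-Mmi1 replicate was left out, all 6 passed. leu1 lost its call without GFP-Mmi1 replicate 2 (log2 6.79, adjusted p = 0.15 from edgeR). ura4, a uracil synthesis gene and selection marker, had 405 and 520 counts against 1036 and 997, a log2 value of 3.99 ± 0.52 (adjusted p = 0.014 from edgeR), which was not called without either GFP-Mmi1 replicate (0.14 and 0.20).

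**Figure D5:**
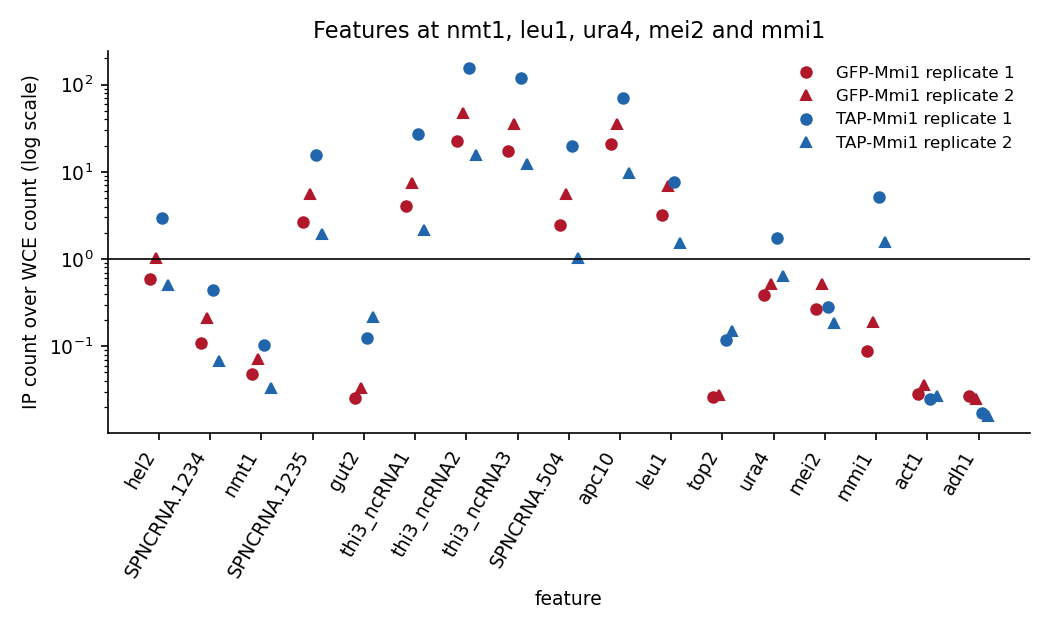
IP count over WCE count (log scale) in each replicate pair of the GFP-Mmi1 (red) and TAP-Mmi1 (blue) strains for features at nmt1, leu1, ura4, mei2 and mmi1, with act1 and adh1 for comparison; the line marks equal counts. thi3_ncRNA2 reached 22.5 and 46.8 and apc10 21.0 and 35.4 in the control, whereas gut2 and top2 lie near act1 and adh1.

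Some mRNAs with few reads in the WCE also had an IP/WCE above the typical level. SPBPB10D8.01 had 103 and 98 counts in the IP and 69 and 80 in the WCE, a log2 IP/WCE of 5.56 ± 0.28 (adjusted p = 6.3e-08 from edgeR). pdc102, annotated as a pyruvate decarboxylase, had 21 and 10 against 12 and 12, pfl6, a flocculin-type gene, had 4 and 6 against 5 and 3, and SPAC869.01 had 13 and 7 against 0 and 1. For these 3 the counts carry little precision, and mfc1, a membrane transporter gene with 273 and 235 against 247 and 237 (5.20 ± 0.28), was added after its value had been seen. Of lncRNAs, SPNCRNA.337 had 39 and 19 counts against 3 and 5, and SPNCRNA.289 and SPNCRNA.1303 each had 15 and 8 against 4 and 2. The equal counts of SPNCRNA.289 and SPNCRNA.1303 may come from the same reads, so they may not be separate measurements. When mRNAs and lncRNAs with a length were ordered by WCE counts per kb and cut into 10 bins of equal size, 75 of the 645 in the lowest bin were higher and 0 lower, with a median log2 IP/WCE of 0.63. Over all features 8.2% were higher and 3.94% lower, and the bin with the most WCE counts per kb had as many higher calls (78 of 645, with 68 lower) at a median of -0.02. The median lay between -0.14 and 0.03 in the 9 bins above the lowest. The bins were cut by WCE counts, which also enter the log2 IP/WCE, so the higher median of the lowest bin may come from the cut itself. Median IP counts per kb in that bin were 6.59 and 6.26 in replicates 1 and 2, which left little room for a lower call. No trait of features with few WCE reads can be read from these bins. At the chromosome ends, parts of which are silenced in fission yeast, the chromosomes differed. Within 50 kb of the ends of chromosomes I and II, 11 of 40 tested mRNAs were higher and 0 lower, with a median of 2.00, against 239 of 4129 higher and a median of -0.08 elsewhere on these chromosomes. Within 50 kb of the ends of chromosome III, 3 of 21 were higher and 1 lower, with a median of -0.23 and 2612 counts in the WCE for a median mRNA, and over the ends of all 3 chromosomes 14 of 61 were higher and 1 lower, with a median of 0.68. The 40 mRNAs at the ends of chromosomes I and II had a median of 41.25 counts in the WCE and 6.75 in the IP, against 3038 and 85.5 elsewhere, and the part of low counts in this difference was not tested.

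The mRNAs lowest in the IP were nearly absent from it. aim41 had 0 and 0 counts in the IP against 293 and 246 in the WCE, where 8.50 and 6.87 counts would have given an equal level after TMM. At the floor of 3 counts per IP library it was at least 2.55-fold lower after TMM and at least 84.9-fold lower on library totals. SPAC22G7.03 had 1 and 0 against 489 and 523, SPAC57A7.15c 0 and 1 against 481 and 451, mrpl25, a mitochondrial ribosomal protein gene, 0 and 1 against 464 and 411, and mnh1 2 and 1 against 731 and 671. All 5 were called lower after TMM. The calls of aim41 and mrpl25 ended without either GFP-Mmi1 replicate (adjusted p between 0.061 and 0.10 from edgeR), that of SPAC22G7.03 without replicate 2 (0.061) and that of SPAC57A7.15c without replicate 1 (0.053). The lncRNA SPNCRNA.1346 had 0 and 0 against 496 and 450, at least 4.48-fold lower after TMM, and SPNCRNA.376 and SPNCRNA.248 followed with 1 count each in the IP.

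Among abundant housekeeping mRNAs, the group medians lay between -0.38 and 0.38, within the quartiles of all features (-0.41 and 0.38), of which 8.2% were higher and 3.94% lower. Of 141 ribosomal protein mRNAs, 19 were higher, a larger share than that of all features, and 6 lower, with a median of 0.10. rpp101, which encodes an acidic protein of the ribosomal stalk, had 318 and 257 counts against 2199 and 2029 (2.25 ± 0.19), and rps2501 was the lowest at -1.34 ± 0.38. Of 16 glycolysis and fermentation mRNAs, 3 were higher and 1 lower, with a median of 0.20. gpd3, a glyceraldehyde-3-phosphate dehydrogenase, was the highest (1.54 ± 0.14, from 999 and 943 counts against 12119 and 11307) and hxk1, a hexokinase, was the lowest (-0.70 ± 0.15). Of 7 elongation factor mRNAs, 1 was higher (eft201, 0.49), and the median was 0.38. Of 10 histone genes, pht1, which encodes the variant H2A.Z, was higher (1.19) and hhf2, an H4 gene, was lower (-1.33), with a median of -0.38, and of 18 chaperone mRNAs 1 was higher (ssa2, an Hsp70 gene, 0.86). For 12 mRNAs of the plasma membrane, cell wall and secretory route, gas2, a cell wall glucanosyltransferase, was higher (0.50) and pdi1, a protein disulfide isomerase, was lower (-0.75). For 9 mRNAs of snoRNA-binding and nucleolar proteins 1 was higher (gar2, 0.94), against 23 of the 53 snoRNAs. Of 6 thiamine-regulated genes, nmt1 among them, 0 were called, with a median of -0.28. Every tested member of these groups was lower on library totals.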

How the data were processed

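RNA of IP and WCE samples from the GFP-Mmi1 and TAP-Mmi1 strains was sequenced as paired-end reads of 75 nt, in 8 libraries and 4 groups of 2 replicates. Per the labels and the study's methods, the authors demultiplexed the reads with bcl2fastq 2.18.12, trimmed them with cutadapt 1.15, aligned them with Bowtie2 and deposited raw counts per feature from MulticovBed. The genome build and the strand setting are not given in the sources used here. A row without a name held at most 0.0552% of a library's counts and was left out.

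Feature classes were taken from identifier prefixes, and 6813 of 6973 features were matched to the RefSeq annotation of ASM294v3 for coordinates and sequences. The test was the robust quasi-likelihood F test of edgeR 4.0.16 under R 4.3.3 (TMM, filterByExpr), with Benjamini-Hochberg adjustment and a threshold of 0.05, in a fit over all 8 libraries with the culture as a block and 2 residual degrees of freedom. Standard errors were derived by dividing the size of a log2 difference by the root of its F statistic. The pairing comes from the numbers in the labels and from the study's ratio of each IP to its WCE, and the sources used here do not say outright that equal numbers share a culture. The replicate deviations of IP and WCE correlated by 0.000752 in the control and 0.148 in the TAP-Mmi1 strain across 5608 features. Alternatives were library totals, totals or TMM without rRNA, DESeq2 1.42.0, no filter, no block, the 4 GFP-Mmi1 libraries alone and leaving out each replicate.

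Features were named by rule: the baits, the RNAs the study follows, act1, adh1 and structured RNAs; the highest and lowest per class past the threshold on the same side in both pairs; those with the most IP counts; and members of 15 lists. Members and lists were chosen with earlier results of these data known.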

Additional observations from a re-analysis of the deposited data

Results flagged for a closer look

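The features below differed between the strains, as tested by subtracting the log2 IP/WCE of the control from that of the TAP-Mmi1 strain after TMM (edgeR, adjusted p under 0.05; of 6827 features, 1067 or 15.6% were higher with TAP-Mmi1 and 1424 or 20.9% lower). The median of this difference was -0.04 after TMM and 2.66 on library totals. Of the RNAs the study follows, the difference was 3.51 for UpsnoU14, 4.08 for snoU14, 3.91 for omt3, 2.43 for the long form of sme2 and 2.43 for SPNCRNA.103. It was 1.01 for snu6 and 1.6 for ter1. On the TMM scale some features were lower with TAP-Mmi1, and so relatively higher in the control IP. These were mei2 at -3.01, adh1 at -2.94, srp7 at -2.86, act1 at -2.58, snu1 at -1.89, rrk1 at -1.03 and mrp1 at -0.66. On library totals 6036 of all features were called higher with TAP-Mmi1 and 42 lower, so a lower value given here need not hold on that scale. No cause of these differences was tested.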

How the results depend on the processing

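The scaling moved the counts of calls most. Of all features, 560 were higher and 269 lower after TMM, 48 and 6678 on library totals, and 243 and 1838 on totals outside rRNA. With the 4 GFP-Mmi1 libraries and no replicate block, 337 were higher and 90 lower. The pairing also mattered, since without the replicate block 759 were higher and 440 lower. DESeq2 called 429 lower, and with an absolute log2 difference of at least 1 as a further condition 368 were higher and 142 lower. When each replicate was left out, 377 to 524 were higher and 172 (without GFP-Mmi1 replicate 2) to 451 (without TAP-Mmi1 replicate 2) lower. Lone replicates were then assumed to vary like the other strain. TMM without rRNA and no filter on low counts gave counts within 1.5 times. The test of the difference between strains called 6036 higher and 42 lower on library totals, and 596 to 1244 higher and 869 to 1474 lower without each replicate. Relative to all features, the mRNA median was -0.0322 on library totals, -0.00557 for features with at least 10 counts in each control library, 0.00487, and so of the other sign, for features that overlap no other, and -0.041 to -0.0387 in single pairs. The lncRNA median was 0.21 at 10 counts, 0.52 without overlaps and 0.12 in single pairs. The tRNA median was 0.83 at 10 counts and 0.96 to 1.02 in single pairs. The snoRNA median was 2.59 at 10 counts and 1.94 without overlaps. The snRNA median was 2.2 at 10 counts, and so below that of snoRNAs, and 2.06 to 2.57 in single pairs. The rRNA median was 8.79 at 10 counts and 9.96 to 10.6 in single pairs. As shares of IP counts outside rRNA, mRNAs had 76.21%, lncRNAs 21.3%, tRNAs 0.4%, snoRNAs 1.84% and snRNAs 0.25%. The median IP/WCE count ratio was 0.0284 as deposited, 1.0 after TMM, 0.71 on totals outside rRNA, and 0.0275 to 0.0286 in single pairs. Between 12 and 13 of the 16 ACA snoRNAs were called higher under each alternative other than library totals, where 0 were. Of 110 named features tested, 44 were higher and 12 lower after TMM, and 30 of the 44 were below 0 on library totals. The cause of these changes was not tested. Outside rRNA the IP counts were low for most features, and the IP replicates also differed in features with many counts, such as mei2 and leu1.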

Other observations

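The GC content of mRNAs moved with their log2 IP/WCE in the control. Across 5084 mRNAs with coordinates, which are not independent replicates, Spearman's rho was 0.29, and in the 2165 that overlap no other listed feature it was 0.29. From the fifth with the lowest GC content (median 33.9%) to that with the highest (40.5%), the median log2 IP/WCE went from -0.28 to 0.15, the number called higher from 17 to 159 and the number called lower from 72 to 22.

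The gap between the control IP replicates was also set beside the TAP-Mmi1 IP. When 5608 features were cut into 10 bins by their log2 IP/WCE in the TAP-Mmi1 strain, 16.4% of the highest bin were over 2-fold higher in GFP-Mmi1 IP replicate 2 than in replicate 1, with a median of 1.18 times. In the other bins, 1.25% to 7.31% were, with medians between 0.953 and 1.02 times. Across all 5608 features rho between the gap and the TAP-Mmi1 value was 0.09, and that of the gap between the control WCE replicates was 0.32. All points share the same libraries, 4 of the control and 4 of the TAP-Mmi1 strain, and are not independent replicates.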
